A study of Felis catus with 2 samples.

Results

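The complement components and regulators described here are C1QA, C1QB, C1QC, C1R, C1S, CFI and SERPING1, out of 19998 different names in the deposited table. They were taken by exact match of the gene name from a group of 9 genes, and each name stands on a single row. The other two genes of the group, C3 and CFB, had no exact match and were therefore not analysed here. The RNA, selected for poly(A) tails, came in 2 libraries from Felis catus, each from 1 cat at 2 months of age. The affected library is from a cat with primary congenital glaucoma (PCG) of the colony founded by Siamese cats, in which affected animals are homozygous for a frameshifting insertion in LTBP2. The normal library is from an unrelated healthy cat, and neither cat is described as treated. The tissue was cut from the drainage angle of the eye and took in ciliary body, trabecular meshwork and some sclera, so each value is a sum over many cell types, and fewer cells of a type cannot be told apart from less RNA per cell.

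Complement is a cascade of plasma and tissue proteins that tags microbes, dying cells and immune complexes for removal. In the classical pathway, C1q binds the target and carries the proteases C1r and C1s, which cleave C4 and C2 and so lead to cleavage of C3. The lectin pathway reaches the same step through collectins and MASP proteases, the alternative pathway amplifies it through factor B and factor D, and C5 to C9 form the membrane attack complex. C1q is made mainly by macrophages and microglia, whereas C1r, C1s and the C1 inhibitor are also made by fibroblasts and epithelia. In the eye, complement takes part in immune surveillance and in the removal of synapses, and many ocular cells carry regulators that limit it.

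Levels are given in FPKM, fragments scaled by exon length and library size, as calculated by the authors. FPKM are per length, so levels can be compared between genes of a library. Log2 ratios are log2 of (affected + 1) over (normal + 1), for the 16676 of 32065 loci that reached 1 FPKM in either library or in both, and this scale understates the change of low genes. Since each condition has a single library, neither a replicate error nor a test can be given, and every difference below is one between these 2 libraries. Over all loci used, the median log2 ratio was −0.0047, 49.7% of the loci were higher in the affected library, and the central 90% lay between −1.32 and 1.27. All 7 genes passed the minimum in both libraries. At unnamed loci of 400 to 1500 bases, 97.9% of 1263 low values in the normal and 98.0% of 1073 in the affected library were whole multiples of 1 fragment to within 0.03 of a fragment. There 1 fragment on 1 kilobase of effective length was worth 0.0141 FPKM in the normal library and 0.0148 FPKM in the other.

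C1QA, C1QB, C1QC and SERPING1 were more than 2-fold higher in the affected library, C1R and C1S were slightly higher, and CFI was lower. Thus 4 of 7 genes had a log2 ratio of at least 1, against 8.14% of all loci used, and 0 of 7 had one of at most −1, against 8.75% of all loci. The median log2 ratio of the 7 genes was 1.32. Their summed level was 331.1 FPKM in the normal cat and 726.1 FPKM in the affected cat, a ratio of 2.19. The genes were not picked at random and their number is small, so the share is given as a description of these libraries.

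**Figure D1:**
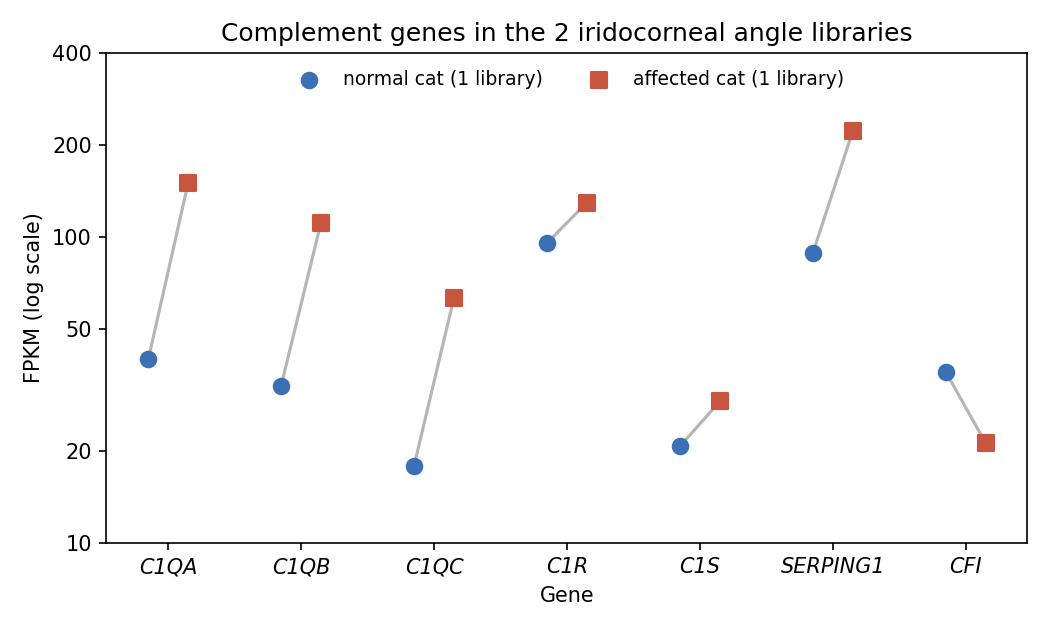
FPKM (log axis) of the 7 complement genes, with circles for the normal and squares for the affected library, 1 library each and no error bars. The 3 C1Q chains and SERPING1 have the longest lines, C1R and C1S short upward ones, and CFI alone slopes down, from 36.2 to 21.2 FPKM.

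C1QA, C1QB and C1QC encode the A, B and C chains that assemble together into C1q, the recognition molecule of the classical pathway. C1QA (locus XLOC_014368, chromosome C1 of felCat5, 15865354 to 15868718) was listed at 39.7 FPKM in the normal cat and 149.8 FPKM in the affected cat, 3.77 times the normal value. C1QB (XLOC_014370, 15880729 to 15885876) was listed at 32.6 FPKM in the normal cat and 111.4 FPKM in the affected cat, a ratio of 3.41. C1QC (XLOC_014369, 15871959 to 15876540) was listed at 17.8 FPKM in the normal cat and 63.2 FPKM in the affected cat, a ratio of 3.54. All 3 chains were therefore higher in the affected library by a similar factor. Summed over the chains, the level was 90.2 FPKM in the normal cat and 324.5 FPKM in the affected cat, a ratio of 3.60.

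The log2 ratios of the C1Q chains were 1.89 for C1QA, 1.74 for C1QB and 1.77 for C1QC. They exceeded those of 98.0%, 97.5% and 97.6% of all loci used, and 325 loci had a higher log2 ratio than C1QA. Among loci with a mean level within 2-fold of the gene, the log2 ratios exceeded 96.5% of 1422 loci for C1QA, 96.7% of 1941 loci for C1QB and 97.2% of 3421 loci for C1QC. The position of the chains is thus nearly the same among loci of like level as among all loci. In level, C1QA stood at the 86.9th percentile of all loci used in the normal library and at the 96.7th in the affected library.

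The balance between the chains was alike in both libraries. C1QB stood at 0.821 of the C1QA level in the normal and at 0.744 in the affected library. C1QC stood at 0.449 of C1QA in the normal and at 0.422 in the affected library. C1QC was thus the lowest chain in each library and C1QA the highest, and the ratios between chains differed by at most 1.10-fold between the cats. These ratios are computed within a library and do not depend on the scaling between libraries.

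The depth behind these values was high. If 1 kilobase of effective transcript length is assumed, since the table gives no transcript length, C1QC in the normal library, the lowest value of the 7 genes, would rest on 1264 fragments with a counting error of 2.81%. SERPING1 in the affected library, the highest value, would rest on 14986 fragments with a counting error of 0.817%. On the same assumption the 95% half-widths of the log2 ratios from counting were between 0.043 for SERPING1 and 0.098 for C1S. All 7 log2 ratios were farther from 0 than that, and the half-widths do not include variation between cats.

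C1R and C1S encode the paired serine proteases that C1q carries. C1R (XLOC_013178, chromosome B4, 41294400 to 41304862) was listed at 95.5 FPKM in the normal cat and 129.6 FPKM in the affected cat, a log2 ratio of 0.44. C1S (XLOC_012434, 41265337 to 41275122) was listed at 20.7 FPKM in the normal cat and 29.0 FPKM in the affected cat, a log2 ratio of 0.47. Both proteases were under the 2-fold threshold, with log2 ratios above those of 76.8% and 78.1% of all loci. C1R was 4.62 times as high as C1S in the normal and 4.47 times as high in the affected library, so this pair too kept its balance. Relative to its proteases, C1q was higher in the affected library. C1QA stood at 0.416 of the C1R level in the normal and at 1.16 times that level in the affected library.

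SERPING1 encodes the C1 inhibitor, the serpin that inactivates C1r, C1s and the MASP proteases. SERPING1 (XLOC_019213, chromosome D1, 104198364 to 104300612) was listed at 88.5 FPKM in the normal cat and 221.9 FPKM in the affected cat, 2.51 times the normal value. Its log2 ratio of 1.32 exceeded those of 95.4% of all loci and of 91.2% of 816 loci of like level. The inhibitor was below C1R in the normal library, at 0.927 of its level, and above it in the affected library, at 1.71 times its level. The listed span of SERPING1 is 102.2 kilobases and is shared with 6 other loci. Of these, 5 reached 1 FPKM, among them MED19, a subunit of the Mediator complex, at 43.9 and 95.2 FPKM, and YPEL4 at 4.10 and 9.38 FPKM, normal before affected. MED19 and YPEL4 were thus also more than 2-fold higher, and without knowledge of strand, reads of overlapping transcripts cannot be told apart. None of the other 6 genes shares its span with another locus, and 3 of these 6 were at least 2-fold higher.

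CFI encodes factor I, the plasma protease that cleaves C3b and C4b once a cofactor is bound and so shuts down the C3 convertases. CFI (XLOC_006915, chromosome B1, 113677228 to 113732128) was listed at 36.2 FPKM in the normal cat and 21.2 FPKM in the affected cat, 1.71 times as high in the normal cat. Its log2 ratio of −0.75 was above that of only 13.8% of all loci, and of 8.59% of 4411 loci of like level, and stayed under the 2-fold threshold. CFI was the only gene of the 7 with a lower value in the affected library. C1QA was 1.10 times as high as CFI in the normal and 7.08 times as high in the affected library.

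The order of levels changed between the libraries. In the normal library, from high to low, it was C1R, SERPING1, C1QA, CFI, C1QB, C1S and C1QC. In the affected library it was SERPING1, C1QA, C1R, C1QB, C1QC, C1S and CFI. C1R and SERPING1 are neighbours in the normal library, at 95.5 and 88.5 FPKM, and C1QA and C1R are neighbours in the affected library, at 149.8 and 129.6 FPKM. Whether neighbours in these orders differ beyond the spread between cats cannot be said from 1 library each.

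The positions of the genes give 4 sites, since the C1Q chains lie side by side within 20.5 kilobases and C1S and C1R within 39.5 kilobases. No other locus is listed inside either cluster, and RefSeq places the same genes next to each other in the later assembly F.catus_Fca126_mat1.0. Of the 10 nearest loci past the minimum around the C1Q cluster, 5 on each side, 1 was at least 2-fold higher and 2 were at least 2-fold lower, and their median log2 ratio was −0.60. Around CFI 0 of 10 were at least 2-fold higher and 1 was at least 2-fold lower, with a median of 0.26, and 2 of the 10, ELOVL6 at −0.92 and an unnamed locus at −1.18, lay below CFI itself. Around SERPING1 0 of 10 loci outside its span were at least 2-fold higher and 1 was at least 2-fold lower, with a median of 0.05. Inside its span 5 loci passed the minimum, and they are not among these 10. MED19 and YPEL4, with log2 ratios of 1.10 and 1.03, were at least 2-fold higher, and the others stayed under 2-fold. Around C1S and C1R the median was 0.35, 2 of 10 were at least 2-fold higher and 0 were at least 2-fold lower. The first is C1RL, which encodes a C1r-like protease and starts 3.69 kilobases beyond C1R, at 3.02 FPKM in the normal cat and 7.93 FPKM in the affected cat. The second is CD163, a macrophage scavenger receptor. The log2 ratio of the C1Q chains therefore lay above that of each of its 10 flanking loci, the highest of which had 1.04.

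**Figure D2:**
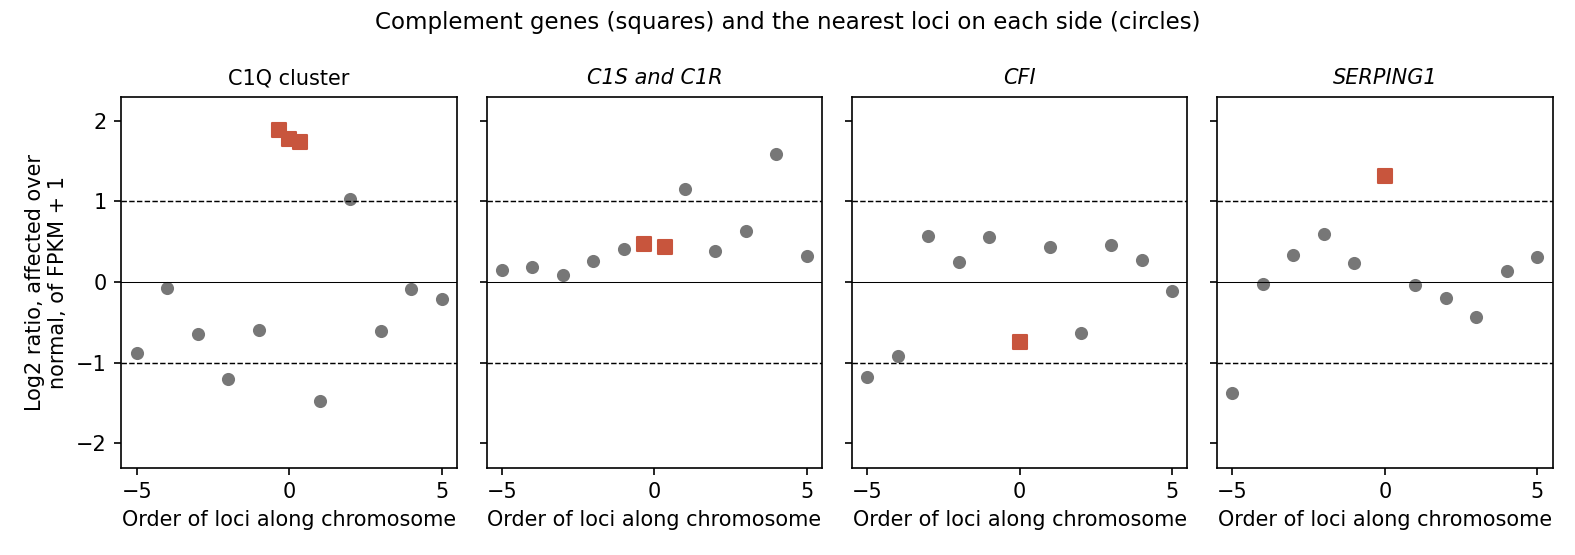
Log2 ratio, affected over normal, of FPKM + 1 for the complement genes (squares) and the 5 nearest loci past the minimum on each side (circles), in order along the chromosome and not to distance, with dashed lines at 1 and −1. The C1Q chains and SERPING1 stand above all the loci plotted beside them, whereas C1S and C1R stand among theirs. The 5 loci past the minimum inside the SERPING1 span, MED19 and YPEL4 among them, are not plotted.

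The remaining complement genes were split in direction, with 10 higher and 11 lower in the affected library. Of 45 other complement genes looked for, 35 were listed and 21 passed the minimum. Of these 21, 3 were at least 2-fold higher, 4 were at least 2-fold lower and 14 were under 2-fold, with a median log2 ratio of −0.18. This median was 0.061 over the 9 genes whose mean reached 5 FPKM and 0.033 with no minimum, over 34 listed genes without the locus named C1QBP, so its sign depends on the minimum. The shares can be read against the same 8.14% and 8.75% of all loci. The 14 genes below the minimum include C5, C6, C8A, C8B and C9 of the membrane attack complex, the receptor CR2, MBL2, a collectin of the liver, and C4BPA and C4BPB. A locus named C1QBP spans only 746 bases on chromosome C1 while RefSeq places C1QBP on chromosome E1 of the later assembly, so its value was not read as that gene. It is among the 35 listed names and below the minimum, and enters none of the counts over 21 genes.

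**Figure D3:**
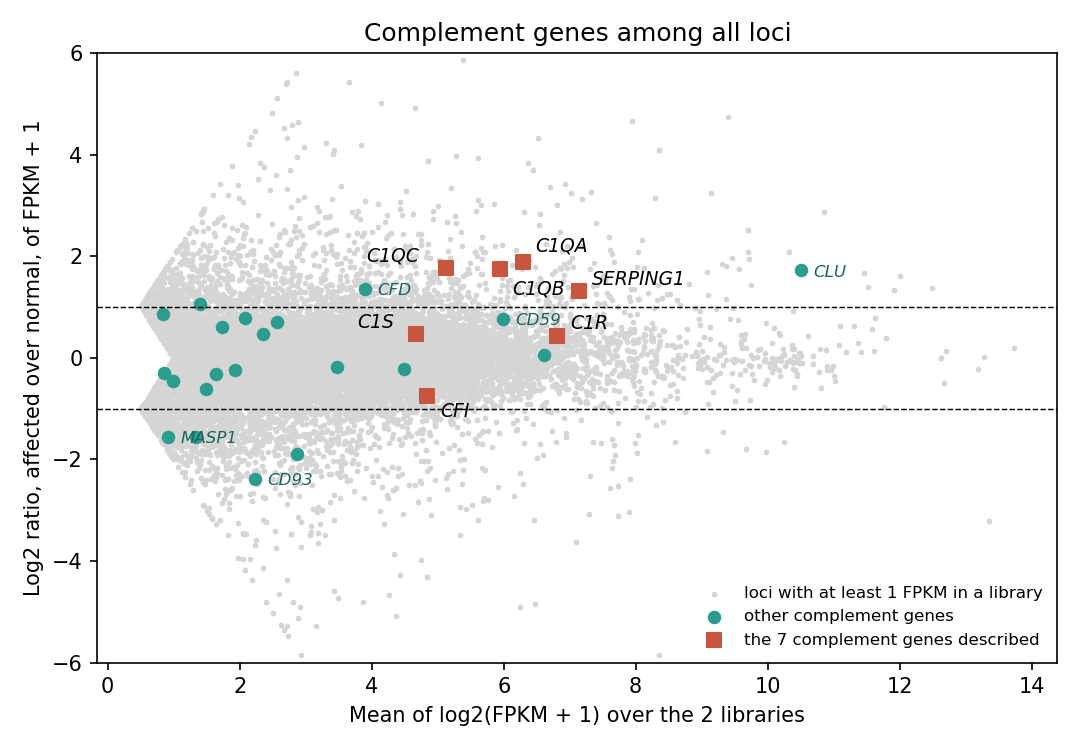
Log2 ratio, affected over normal, against the mean of log2(FPKM + 1) for all 16676 loci used (grey), the 7 complement genes described (squares) and 21 other complement genes (circles), with dashed lines at 1 and −1. The C1Q chains and SERPING1 sit near the upper edge of loci of like level, CLU is higher in level than all of them, and 25 loci lie beyond the plotted range of 6 in either direction.

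MASP1, a protease of the lectin pathway, was listed at 2.25 FPKM in the normal cat and 0.0997 FPKM in the affected cat, a log2 ratio of −1.56, or −3.56 where the pseudocount was 0.1. MASP2, which cleaves C4 and C2, was listed at 1.68 and 3.10 FPKM, but its locus shares its span with TARDBP, and the spans of COLEC12, VSIG4 and SUSD4 also hold other loci. The collectins COLEC11 and COLEC12, which bind sugars on microbes, were listed at 10.9 and 9.47 FPKM and at 94.7 and 98.8 FPKM, normal before affected. MASP1, MASP2, COLEC11 and COLEC12 were thus not together higher in the affected library, in contrast to the C1Q chains.

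In the alternative pathway, CFD, which encodes the protease factor D, was listed at 8.27 FPKM in the normal cat and 22.8 FPKM in the affected cat, a log2 ratio of 1.36. CFP, which encodes properdin, the stabiliser of the alternative convertase, was listed at 3.14 and 2.51 FPKM. In the terminal pathway, C7 was listed at 0.823 and 2.81 FPKM, a log2 ratio of 1.06, or 1.66 where the pseudocount was 0.1, and C8G at 3.32 and 5.01 FPKM. Factor D and C7 thus passed the 2-fold threshold, with C7 at a low level.

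Of the 7 complement receptors that passed the minimum, 2 were higher and 5 lower in the affected library, where 49.7% of all loci were higher. The anaphylatoxin receptors C3AR1 and C5AR1 were listed at 2.47 and 1.26 FPKM and at 2.50 and 1.80 FPKM, normal before affected. ITGAM and ITGAX, the alpha chains of complement receptors on myeloid cells, were listed at 1.32 and 0.684 FPKM and at 1.01 and 0.638 FPKM. Their shared beta chain ITGB2 was higher, at 3.65 and 6.58 FPKM, as was VSIG4, a receptor for C3 fragments on resident macrophages, at 2.24 and 4.56 FPKM. CD93, a membrane protein of endothelium once described as a C1q receptor, was listed at 9.74 FPKM in the normal cat and 1.05 FPKM in the affected cat, a log2 ratio of −2.39. It was the only receptor past the 2-fold threshold on the scale of FPKM + 1, while the plain FPKM ratio of VSIG4 was 2.04.

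Regulators on cell membranes and in fluids differed in direction. CLU, which encodes clusterin, a chaperone that also blocks the membrane attack complex, was listed at 800.2 FPKM in the normal cat and 2641 FPKM in the affected cat, a log2 ratio of 1.72. CD59, a membrane anchored blocker of the same complex, was listed at 47.4 and 81.6 FPKM, a log2 ratio of 0.77. By contrast CD55, which speeds the decay of the C3 convertases, was listed at 3.34 and 0.466 FPKM, a log2 ratio of −1.57, or −2.60 where the pseudocount was 0.1, and THBD, an endothelial protein, at 13.0 and 2.79 FPKM, a log2 ratio of −1.89. SUSD4, a membrane regulator, was listed at 23.4 and 19.9 FPKM, and CPN2, a subunit of the carboxypeptidase that trims anaphylatoxins, at 0.329 and 1.43 FPKM. Of the 6 regulators past the minimum, 1 was at least 2-fold higher on the scale of FPKM + 1, against 8.14% of all loci, and 2 were at least 2-fold lower, against 8.75%. With 6 genes, a count of 1 is close to that share. CPN2 was under that threshold with a log2 ratio of 0.87, but its plain FPKM ratio was 4.34, and a pseudocount of 0.1 gave it a log2 ratio of 1.83, against 1.05 with each library rescaled to sum to 1000000.

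Markers of macrophages and microglia, the main source of C1q, did not stand higher in the affected library as a list. Of 18 markers, 15 were listed, 14 passed the minimum, 3 of those were higher, against 49.7% of all loci, and 11 lower, and their median log2 ratio was −0.39. The summed level was 248.6 FPKM in the normal cat and 204.2 FPKM in the affected cat, and no listed marker was at 0. TYROBP, an adaptor of myeloid receptors, was listed at 59.2 and 66.7 FPKM, normal before affected. CSF1R, the receptor for macrophage growth factor, was listed at 12.9 and 11.7 FPKM, CTSS, a lysosomal protease, at 68.1 and 57.6 FPKM, and LAPTM5, a lysosomal membrane protein, at 26.3 and 19.2 FPKM. The exception past the 2-fold threshold on the high side was CD163, at 3.67 FPKM in the normal cat and 13.0 FPKM in the affected cat, a log2 ratio of 1.58. TMEM119, which marks microglia in brain but is also made by other cells, was past it on the low side, at 36.7 and 5.96 FPKM. Without TMEM119, a choice made after seeing the data, the summed level was 211.9 FPKM in the normal cat and 198.2 FPKM in the affected cat, and the median log2 ratio was −0.36. On plain FPKM, CX3CR1, a chemokine receptor of microglia, was also past 2-fold on the low side, at 1.49 and 0.354 FPKM, a ratio of 4.23 normal over affected. P2RY12, a purinergic receptor of microglia, was too, at 2.18 and 0.987 FPKM, a ratio of 2.21. The spans of CSF1R, CTSS and P2RY12 hold other loci, and of the 11 markers past the minimum without these, 3 were higher and 8 lower, with a median log2 ratio of −0.43.

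C1QA was also set against the 9 of these markers whose mean reached 5 FPKM, within each library. The ratio of C1QA to the marker was higher in the affected library for 9 of 9, and the same holds for 97.4% of all 10691 loci at that level, so the count largely restates the difference in C1QA itself. C1QA stood at 0.671 of TYROBP in the normal and at 2.25 times TYROBP in the affected library. It was 3.08 times as high as CSF1R in the normal and 12.8 times as high in the affected library. The factor between the libraries ran from 1.06 for CD163 to 23.2 for TMEM119, with a median of 4.85. CD163 is thus the marker against which C1QA differed least, with C1QA at 10.8 times its level in the normal and 11.5 times in the affected library. These 9 markers were taken after their values had been seen.

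**Figure D4:**
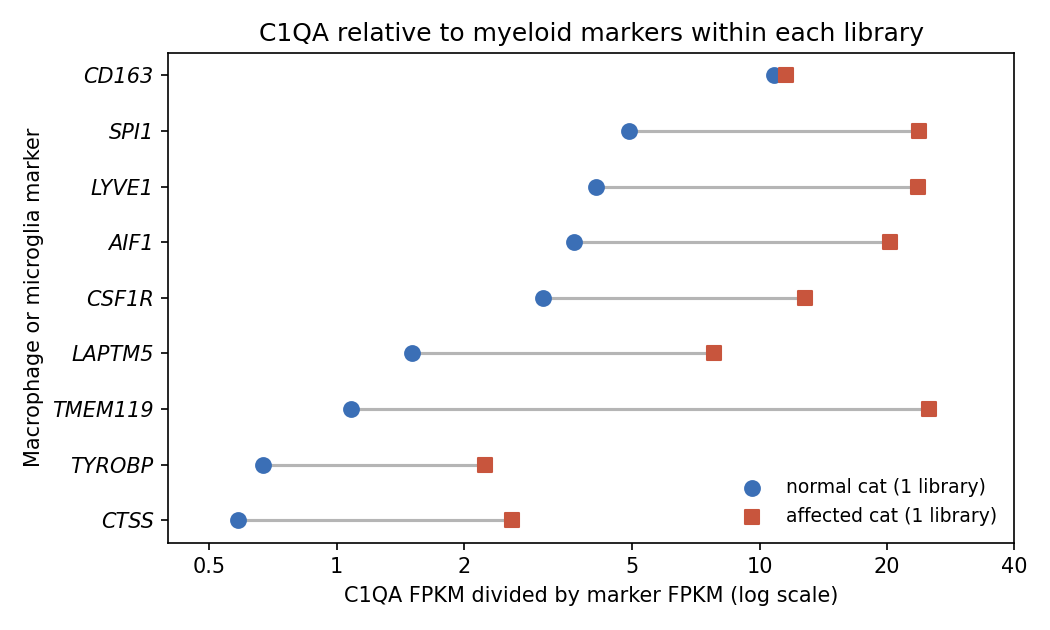
C1QA FPKM divided by the FPKM of each of 9 macrophage or microglia markers (log axis), with circles for the normal and squares for the affected library. Every square lies to the right of its circle, and for CD163 the symbols nearly coincide at 10.8 and 11.5.

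Genes of other cells in the dissected pieces also differed between the libraries, and their part in the complement values was not tested. Of 12 markers of stromal fibroblasts, 11 were lower in the affected library and 8 of them at least 2-fold, against 8.75% of all loci. COL1A1 was listed at 2476 and 41.8 FPKM, VIM at 1647 and 1105 FPKM, DCN at 685.6 and 82.2 FPKM and LUM at 479.5 and 15.6 FPKM, normal before affected. COL1A2 was listed at 0 in the normal and at 447.2 FPKM in the affected cat, and without it the summed level of the list was 5900 FPKM in the normal cat and 1342 FPKM in the affected cat. C1R, C1S and SERPING1, which fibroblasts also make, were thus higher in the library in which the stromal list was lower. All 8 genes of retinal glia and photoreceptors that were listed were higher in the affected library, against 49.7% of all loci, with a summed level of 793.0 FPKM in the normal cat and 3507 FPKM in the affected cat. All 7 listed lens genes were higher as well, at a summed 19470 and 31276 FPKM, and of 5 listed genes of the ciliary epithelium 4 were higher and 1 lower, at a summed 1557 and 4602 FPKM. The spans of 2 of the 8 retinal genes and 3 of the 5 ciliary genes hold other loci.

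Complement also circulates as protein made by the liver, so genes of liver plasma proteins and of red blood cells were read as well. Plasma carries protein rather than liver RNA, so the liver genes cannot show how much plasma was in the tissue. ALB, the albumin gene, was listed at 0.241 FPKM in the normal cat and 0.222 FPKM in the affected cat, FGA at 0 and 0.00527 FPKM, and AHSG at 0 in both. Of the 12 liver genes, 7 passed the minimum, of which 6 were higher and 1 lower in the affected library, 2 at least 2-fold higher and 1 at least 2-fold lower, with a median log2 ratio of 0.80, where 49.7%, 8.14% and 8.75% of all loci were higher, at least 2-fold higher and at least 2-fold lower. The highest were TTR at 504.6 and 990.6 FPKM, APOA1 at 285.8 and 138.1 FPKM and TF at 12.9 and 88.1 FPKM, which ocular tissues also express. Of 6 red blood cell genes, 3 were listed and 1 passed the minimum, HBM, which stood at 4.61 FPKM in the normal cat and is listed at 0 for the affected cat, as is SLC4A1.

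C1R, C1S, SERPING1 and CFI belong to the complement genes that interferon and inflammatory signals are known to induce. In the affected library SERPING1 was more than 2-fold higher, C1R and C1S were higher by less than 2-fold, and CFI was lower. Of 17 interferon response genes, 13 were listed and 12 passed the minimum, and all 12 were higher in the affected library, against 49.7% of all loci. Of these, 5 were at least 2-fold higher, against 8.14% of all loci, and the median log2 ratio was 0.87. IFI6 was listed at 19.5 and 410.3 FPKM and IRF1 at 12.6 and 41.1 FPKM, normal before affected. A second row named IRF1 had a log2 ratio of 0.25, against 1.63 for the row used. MX1 was listed at 17.2 and 29.8 FPKM and TAP1 at 13.4 and 14.0 FPKM, and ISG15 was listed at 0 in both libraries. TAP1 and PSMB9 have the same coordinates, and the spans of IRF1, IFIT3 and CXCL10 also hold other loci. Without these 5 genes, 7 of 7 were higher and 2 at least 2-fold higher, with a median log2 ratio of 0.79. The acute phase and NF-kB list did not lean in either direction. Of its 17 genes 12 were listed and 8 passed the minimum, with 4 higher and 4 lower, a median log2 ratio of 0.03 and 1 gene at least 2-fold higher, NFKBIA, at 22.5 and 64.4 FPKM. VCAM1 was listed at 93.0 and 52.6 FPKM, STAT3 at 17.2 and 21.6 FPKM and PTX3 at 16.6 and 9.07 FPKM, and the spans of STAT3 and PTX3 hold other loci. IL6, TNF and CRP were below the minimum in both libraries. All 7 immediate early genes were higher, against 49.7% of all loci, with a median log2 ratio of 2.55. The part of any of these responses in the complement values was not tested.

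**Figure D5:**
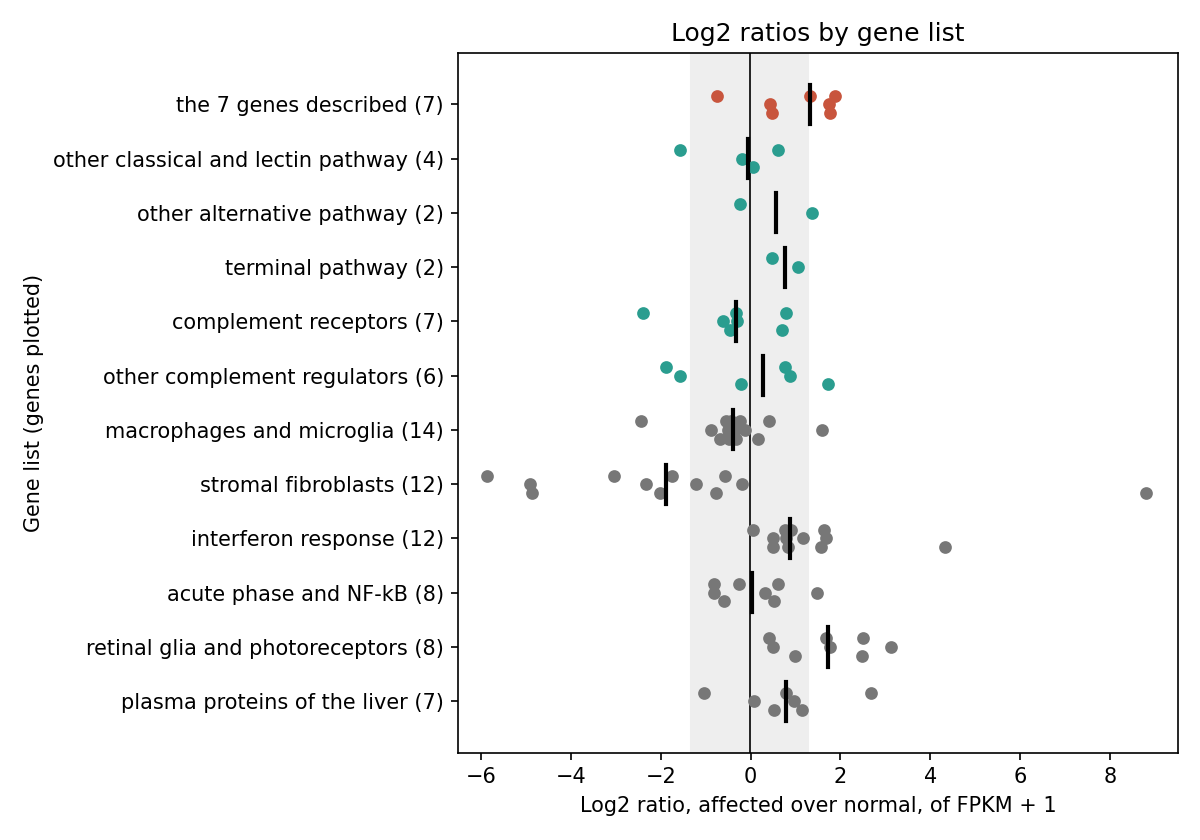
Log2 ratios, affected over normal, of FPKM + 1, 1 point per gene past the minimum, by gene list, with a black bar at each list's median, a line at the median of all loci and a grey band over their central 90% (−1.32 to 1.27). The 7 complement genes have a median of 1.32, the macrophage and microglia list of −0.39, and the single point at the far right is COL1A2, listed at 0 in the normal library.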

How the data were processed

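The authors aligned the reads of polyadenylated RNA (TruSeq v2, not a kit that marks strand) to felCat5 (TopHat 2.0.9, guided by Ensembl gene predictions), and deposited FPKM values for each Cufflinks locus, calculated with Cufflinks 2.1.1. Scaling between the libraries is not stated. Count models were not fitted to FPKM, and p-values were not calculated, because each condition has a single library. Log2 ratios used a pseudocount of 1 FPKM, without rescaling. Where a name repeats, the row with the higher mean was used. The members and gene lists were chosen with earlier results of these data known.

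The value of 1 fragment was found from unnamed loci of 400 to 1500 bases. Values spread evenly would put 6% of them within 0.03 of a whole number of fragments, against the 97.9% and 98.0% found. The scale was about 70900000 fragments for the normal library and 67500000 for the affected one.

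The text names the 7 genes, every other complement gene with at least 1 FPKM in a library, and, from each marker list, at most the 5 highest genes whose mean reached 10 FPKM and genes listed at 0. Lens, retina, ciliary epithelium and immediate early genes are given as counts, sums or medians in place of single values. C1RL, MED19, YPEL4, CD163, CX3CR1, P2RY12, PSMB9, IFIT3, CXCL10, ELOVL6, ALB and IL6 were named after their values had been seen. A gene under this rule is not reported here. RefSeq names matched all 7 genes. Sequences were not used here. The ratio and fragment steps were tested on simulated data. The tools were pandas 2.3.3, numpy 2.4.6, matplotlib 3.10.9 and Python 3.11.15.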

Additional observations from a re-analysis of the deposited data

How the results depend on the processing

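With 1 library per condition the differences have no replicate check. Over 21 recomputed log2 ratios of the 7 genes, under a pseudocount of 0.1 and both rescalings, none changed sign or crossed the 2-fold threshold, and the largest shift was 0.06. Of 63 values for 21 other complement genes all kept their sign, but 22 moved by at least 0.1, by up to 1.99 for MASP1 under the pseudocount of 0.1, and CPN2 alone crossed the threshold, with that pseudocount and with the sum of 1000000. Summing the rows of a name could not move these values, since each of these names has 1 row. The median of the 7 genes was 1.27 after each library was rescaled to sum to 1000000, which moved the median of all loci to −0.05, and 1.10 without SERPING1, which shares its span with other loci. That last setting, the macrophage list without TMEM119, the lists without genes that share their span, the removal of the C1QBP locus and that of loci listed at 0 in exactly 1 library were chosen after seeing the data. The median of other complement genes was 0.034 with no minimum, since 14 low names then entered, or 0.033 without the locus named C1QBP, and 0.061 where a mean of 5 FPKM was required, which left 9 genes. Under that requirement 10691 loci remained, of which 815 were at least 2-fold higher and 691 lower, against 1358 and 1459 of 16676 loci. At a 4-fold threshold 280 of the 16676 loci were higher and 298 lower, and the count of the 7 complement genes higher fell from 4 to 0. No paired analysis was possible because there is only 1 library of each condition.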
